A study of Mus musculus with 8 samples.

Results

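The 9 leukocyte adhesion molecules described here are the integrin α subunits Itgam, Itgal, Itgax and Itga4, the β subunits Itgb1, Itgb2 and Itgb7, the integrin counter-receptor Icam1 and the selectin ligand Selplg. They were chosen by name, through the RefSeq accession that the arrays give for each probe, among 20887 named genes. All 9 were measured, by 15 probes in all, and for each gene the probe with the highest mean intensity over all arrays was used. Every one of these probes lay well above background in all 16 channels and none was saturated, so all 9 genes passed the filter on dim genes.

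Peritoneal macrophages came from C57BL/6 mice whose Furin gene was deleted by LysMCre (LysMCre-fur(fl/fl), called KO) and from WT littermates. Cells were cultured for 24 h, rinsed free of those that had not adhered and kept in new medium for 1 h, and then were left unstimulated or received LPS, a component of the bacterial outer membrane, at 1 μg/ml for 1, 4 or 24 h. Each time point had 2 arrays, each with KO and WT RNA together. In replicate 1 KO RNA carried Cy5 and in replicate 2 Cy3, so that replicate and dye orientation cannot be told apart. LysMCre is expressed from the Lyz2 locus and acts in myeloid cells, so other cells in the culture keep Furin. The ages of the mice and whether cells of several mice were pooled are not given in the sources used here, and the p-values measure the spread between these samples. KO and WT below stand for RNA labelled so. Furin was lower in KO on the arrays of 0, 1 and 24 h, with log2 ratios of KO to WT from -0.84 to -0.53. At 4 h they were 0.0002 and 0.33, which goes against the label, while Lyz2 was lower in KO on all 8 arrays, from -1.85 to -0.74. Where on the transcript the Furin probe lies relative to the deleted part is not given in the sources used here.

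Integrins are dimers of an α and a β chain, and leukocytes carry several that share a β chain. Itgb2 (CD18) pairs with Itgal to form LFA-1, with Itgam to form Mac-1, a receptor for complement fragments and fibrinogen, and with Itgax to form CD11c/CD18. Itga4 pairs with Itgb1 to form VLA-4, which binds Vcam1 and fibronectin, or with Itgb7 to form the gut homing receptor that binds Madcam1. Icam1 is the ligand that LFA-1 and Mac-1 bind on other cells, and its gene is a textbook target of NF-κB. Selplg encodes PSGL-1, the scaffold that selectins bind once glycosyltransferases such as Fut7 and Gcnt1 have decorated it. In macrophages these molecules serve attachment, migration and phagocytosis.

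Promoter sequences of 6 of the 9 genes were in the RefSeq table (GRCm38.p6), and Itgal, Itgb2 and Selplg were not among them. The 250 bases before the annotated start of Icam1, the member that LPS raised first, are shown with those of Itgam, Itgax and Itgb7, which fell. Capitals mark matches, on either strand, to GGAANTTCC (an NF-κB type site), GAGGAA (a PU.1 box) or TGANTCA (AP-1).
Icam1, chr9:21015690-21015939, plus strand: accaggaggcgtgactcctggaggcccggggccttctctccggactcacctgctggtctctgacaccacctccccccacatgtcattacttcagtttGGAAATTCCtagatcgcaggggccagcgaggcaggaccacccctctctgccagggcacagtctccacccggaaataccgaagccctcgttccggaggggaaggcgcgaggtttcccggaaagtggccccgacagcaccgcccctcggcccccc
Itgam, chr7:128062390-128062639, plus strand: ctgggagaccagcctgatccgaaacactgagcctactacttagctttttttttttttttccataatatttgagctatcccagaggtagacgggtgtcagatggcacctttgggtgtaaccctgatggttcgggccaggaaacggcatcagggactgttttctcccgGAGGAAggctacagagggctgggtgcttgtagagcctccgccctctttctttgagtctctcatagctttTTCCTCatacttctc
Itgax, chr7:128129300-128129549, plus strand: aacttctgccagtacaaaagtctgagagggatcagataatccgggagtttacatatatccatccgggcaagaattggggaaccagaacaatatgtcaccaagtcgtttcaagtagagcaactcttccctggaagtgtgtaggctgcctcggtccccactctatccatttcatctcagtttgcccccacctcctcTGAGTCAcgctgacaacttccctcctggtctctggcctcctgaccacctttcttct
Itgb7, chr15:102231936-102232185, minus strand: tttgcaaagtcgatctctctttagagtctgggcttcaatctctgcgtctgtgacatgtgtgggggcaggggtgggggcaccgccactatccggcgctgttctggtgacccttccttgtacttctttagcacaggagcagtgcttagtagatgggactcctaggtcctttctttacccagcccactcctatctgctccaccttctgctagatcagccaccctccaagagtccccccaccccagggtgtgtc
Icam1 held GGAANTTCC, from 153 to 145 bases before its start, and was the only 1 of the 6 promoters with it. Of all 32841 promoters of this length 0.813% held it. These letters were chosen after the Icam1 promoter had been read, because the standard NF-κB consensus, which 7.25% of all promoters held, had no match in any of the 6. Itgam held GAGGAA at 84 to 79 and, on the other strand, at 15 to 10 bases before its start, and Itgb1 also held it, against 23.3% of all promoters. Itgax held TGANTCA at 56 to 50 bases before its start, against 6.75% of all. None of the 3 was found in Itgb7 or Itga4. A match is only a description of the letters. The motifs do not overlap in these promoters.

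Levels are normalised log2 intensities of 1 probe, and they compare samples, not genes. LPS changed most of the members, in the same direction in KO and WT for every member past the threshold in both. Throughout, the threshold was an adjusted p of 0.05 over all genes that limma tested. At 1 h only Icam1 rose, at 4 h Icam1, Itgal and Itgb1 rose while Itgam, Itgax, Itgb2, Itgb7 and Selplg fell, and at 24 h Icam1 was back near its unstimulated level while Itga4 had fallen as well. The median change of the 9 members at 4 h was -0.64 in WT and -0.62 in KO, and at 24 h -1.33 and -1.34, where the median over all genes tested was between -0.01 and 0.00. The 24 h medians are the values of Itgam by its brightest probe, and its dimmer probes changed less or not in that direction. The 4 h median in KO is that of Itga4, which did not pass the threshold.

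**Figure D1:**
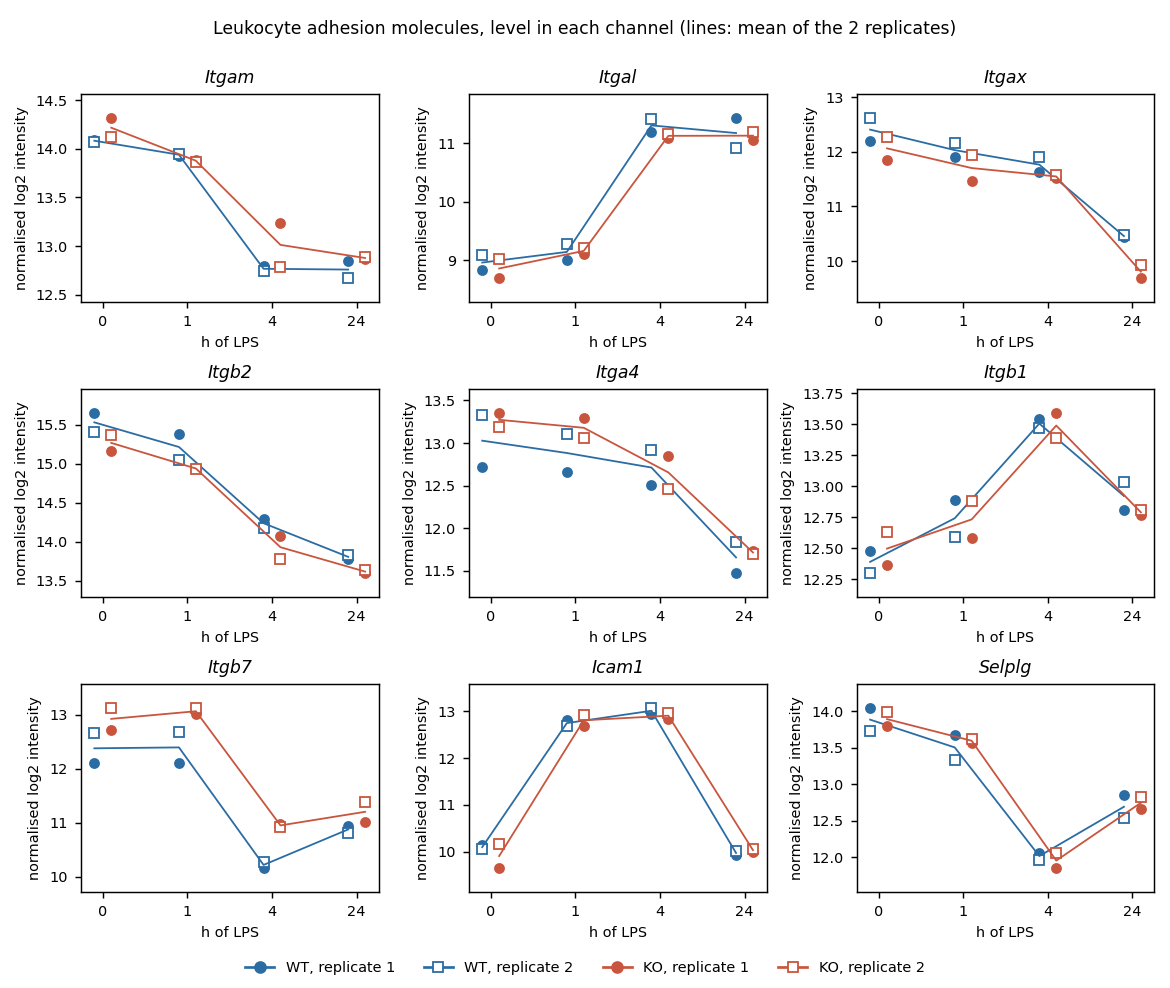
Normalised log2 intensity (vertical axis, own range in each panel) of the 9 members at 0, 1, 4 and 24 h of LPS (categories, not to scale). Blue is WT and red KO, filled circles are replicate 1, open squares replicate 2, and lines join the means of the 2 replicates; Icam1 is high at 1 and 4 h in all 8 channels, Itgal at 4 and 24 h, and Itgb7 is higher in KO than in WT within each of the 8 arrays.

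At 1 h, 1 of 9 was higher in WT, where 3.36% of all 36927 genes and transcripts tested were, and 1 of 9 in KO, where 3.11% were. None of the 9 was lower, against 5.19% in WT and 4.41% in KO. At 4 h 3 of 9 were higher and 5 lower in both genotypes, against 15.4% higher and 19.3% lower in WT and 16.2% and 19.8% in KO. At 24 h 2 of 9 were higher and 6 lower in WT, against 13.5% and 16.8%, and 1 of 9 was higher and 6 lower in KO, against 13% and 15.7%. From 4 to 24 h, a comparison added after the data had been seen, 2 of 9 rose and 5 fell in WT, against 15.3% and 14.5%, and 1 rose and 4 fell in KO, against 15.8% and 14.9%. Without normalization between arrays the calls over all genes at 4 h shifted from 5703 higher and 7129 lower to 3301 and 8585 in WT, and from 5979 and 7299 to 3334 and 8623 in KO. From 4 to 24 h they shifted from 5635 higher and 5356 lower to 8272 and 2099 in WT, and from 5825 and 5502 to 8321 and 2191 in KO. No member that was called turned its direction under any scaling. All 9 members lay well above background in every channel, whereas 43.8 to 51.3% of spots on these arrays did. Of 37018 genes and transcripts 36927 were tested, so the shares over all genes include many dim ones.

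Icam1, the counter-receptor, had the largest rise among the 9. In WT its level was 10.14 and 10.05 in replicates 1 and 2 before LPS, 12.82 and 12.68 at 1 h, 12.95 and 13.08 at 4 h, then 9.92 and 10.02 at 24 h. In KO it was 9.65 and 10.16, then 12.70 and 12.93, 12.84 and 12.98, and 10.00 and 10.06. All 8 channels of 1 and 4 h lay above all 8 of 0 and 24 h. The rise at 1 h was 2.65 on the log2 scale in WT (SE 0.15, adjusted p = 5.47e-08), or 6.29-fold, and 2.90 in KO (SE 0.15, adjusted p = 2.91e-08), or 7.48-fold. At 4 h it was 2.92 in WT and 3.00 in KO. From 4 to 24 h Icam1 changed by -3.04 in WT and by -2.88 in KO (adjusted p = 7.28e-09 and 1.18e-08). At 24 h the difference from unstimulated cells did not pass the threshold, at -0.12 in WT (95% confidence interval -0.44 to 0.19) and 0.13 in KO (-0.19 to 0.44).

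Itgal, the α chain of LFA-1, rose later and stayed high. Its level in WT was 8.83 and 9.09 before LPS, 9.01 and 9.28 at 1 h, 11.20 and 11.41 at 4 h, then 11.43 and 10.92 at 24 h. In KO it was 8.69 and 9.03, 9.11 and 9.21, 11.09 and 11.16, and 11.06 and 11.20. Every channel of 4 and 24 h lay above every channel of 0 and 1 h. The rise was 2.34 at 4 h in WT (SE 0.17, adjusted p = 8.03e-08), or 5.07-fold, and 2.27 in KO (adjusted p = 1.14e-07). At 24 h it was 2.21 and 2.27 (adjusted p = 2.32e-07 and 1.94e-07). From 4 to 24 h Itgal differed by -0.13 in WT and 0.003 in KO, neither past the threshold. A second Itgal probe rose by 2.34 and 2.27 at 4 h and by 2.30 and 2.34 at 24 h.

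The partner chain and the other α chains of the β2 integrins went the other way. Itgb2 had levels in WT of 15.65 and 15.41 before LPS, 15.38 and 15.05 at 1 h, 14.29 and 14.18 at 4 h, then 13.78 and 13.83 at 24 h, and in KO of 15.16 and 15.37, 14.94 and 14.94, 14.08 and 13.78, and 13.60 and 13.64. Within each genotype the unstimulated, 4 h and 24 h channels did not overlap. Itgb2 fell by 1.29 in WT and 1.34 in KO at 4 h (SE 0.14 in each, adjusted p = 3.07e-06 and 2.26e-06) and by 1.72 and 1.65 at 24 h (adjusted p = 3.05e-07 and 5.09e-07). The further decrease from 4 to 24 h, -0.43 in WT (adjusted p = 0.0262) and -0.31 in KO (adjusted p = 0.106), was -0.07 in WT without normalization between arrays (adjusted p = 0.889).

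Itgam, the α chain of Mac-1, fell at 4 and 24 h by its brightest probe, and its other probes changed less or not in that direction. Levels by the brightest probe were 14.09 and 14.07 before LPS, 13.93 and 13.95 at 1 h, 12.79 and 12.74 at 4 h, then 12.85 and 12.67 at 24 h in WT. In KO they were 14.31 and 14.12, 13.89 and 13.87, 13.24 and 12.78, and 12.87 and 12.89. The channels of 4 and 24 h lay below all those of 0 and 1 h. The change was -1.32 in WT and -1.21 in KO at 4 h (SE 0.13 in each, adjusted p = 1.76e-06 and 4.27e-06) and -1.33 and -1.34 at 24 h (adjusted p = 2.64e-06 and 2.53e-06). The 2 dimmer Itgam probes changed by -0.50 and -0.16 in WT and by -0.46 and -0.04 in KO at 4 h, and by 0.01 and 0.12 in WT and by -0.30 and 0.05 in KO at 24 h. With the mean of the 3 probes the change was -0.66 and -0.57 at 4 h (adjusted p = 0.007 and 0.0167) and -0.40 and -0.53 at 24 h (adjusted p = 0.0986 and 0.0302). Whether and by how much Itgam was lower, at 24 h above all, therefore depends on the probe, and the probes' positions on the transcript were not used here.

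**Figure D2:**
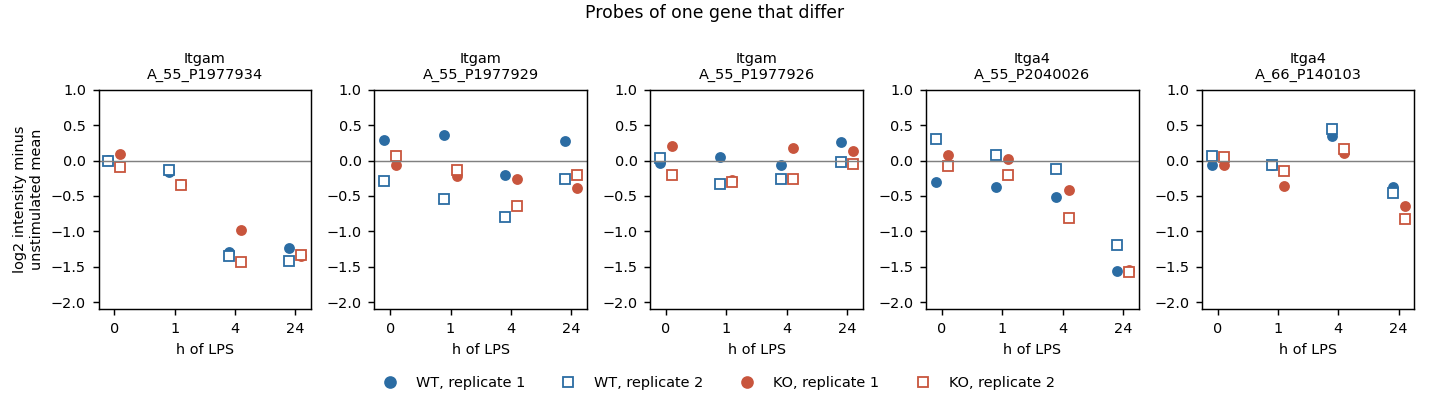
Log2 intensity of each channel minus the unstimulated mean of its genotype (vertical axis) at 0, 1, 4 and 24 h of LPS for the 3 Itgam probes and the 2 Itga4 probes, in order of brightness. Blue is WT, red KO, filled circles replicate 1, open squares replicate 2; the brightest Itgam probe changed by -1.32 and -1.21 at 4 h where the dimmest changed by -0.16 and -0.04, and the dimmer Itga4 probe was higher at 4 h in all 4 channels.

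Itgax, the α chain of CD11c/CD18, fell mainly between 4 and 24 h. In WT it stood at 12.20 and 12.62 before LPS, 11.90 and 12.17 at 1 h, 11.63 and 11.91 at 4 h, then 10.44 and 10.48 at 24 h. In KO it stood at 11.86 and 12.27, 11.46 and 11.95, 11.51 and 11.59, and 9.68 and 9.93. The 4 channels of 24 h were the lowest of the 16. The decrease at 24 h was -1.95 in WT (SE 0.18, adjusted p = 1.77e-06) and -2.26 in KO (adjusted p = 4.69e-07), of which -1.31 and -1.75 fell after 4 h. The smaller change at 4 h, -0.64 in WT (adjusted p = 0.0133) and -0.52 in KO (adjusted p = 0.0419), missed the threshold when some arrays were left out, with adjusted p up to 0.139 in WT and 0.306 in KO without replicate 2 of the unstimulated cells. Dendritic cells also carry Itgax, and of 7 dendritic cell markers 4 lay well above background in all channels. The summed level of the 7 was 15.73 to 16.14 before LPS and 15.04 to 15.12 at 24 h, when 4 of the 7 fell and 1 rose in each genotype, and the part of these cells in the Itgax decrease was not tested. In RNA of a mixed culture, fewer cells of a type and less RNA per cell cannot be told apart.

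Itgb1, the shared β chain of VLA-4 and the fibronectin receptor, peaked at 4 h. Its level in WT was 12.48 and 12.30 before LPS, 12.89 and 12.59 at 1 h, 13.54 and 13.47 at 4 h, then 12.80 and 13.04 at 24 h. In KO it was 12.36 and 12.63, 12.58 and 12.88, 13.59 and 13.39, and 12.77 and 12.81. All 4 channels of 4 h were above the other 12. Itgb1 rose by 1.12 in WT and 0.99 in KO at 4 h (SE 0.15 in each, adjusted p = 3.17e-05 and 9.33e-05), and then fell by 0.58 and 0.70 (adjusted p = 0.00784 and 0.00216), changes that were -0.24 and -0.38 without normalization between arrays (adjusted p = 0.437 and 0.15). At 24 h it was still 0.53 above unstimulated cells in WT (adjusted p = 0.0135) and 0.29 in KO (adjusted p = 0.184). The WT call was lost without replicate 2 of 24 h (0.42, adjusted p = 0.153) and without replicate 2 of the unstimulated cells (0.44, adjusted p = 0.1). The difference between these 2 changes, -0.24 (95% confidence interval -0.75 to 0.27), did not pass the threshold. The second Itgb1 probe rose by 1.10 and 1.00 at 4 h and stood at 0.29 and -0.05 at 24 h.

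Itga4, the α chain of VLA-4 and of α4β7, had fallen by 24 h. In WT its level was 12.72 and 13.33 before LPS, 12.65 and 13.11 at 1 h, 12.51 and 12.92 at 4 h, then 11.47 and 11.84 at 24 h. In KO it was 13.35 and 13.19, 13.30 and 13.06, 12.85 and 12.46, and 11.73 and 11.70. The WT channels of 0, 1 and 4 h overlapped, and those of 24 h lay below all others. The decrease at 24 h was -1.37 in WT (SE 0.23, adjusted p = 0.000333) and -1.56 in KO (adjusted p = 0.000118). At 4 h it was -0.32 (adjusted p = 0.358) and -0.62 (adjusted p = 0.0508), past the threshold in both with a replicate block (adjusted p = 0.0252 and 0.000217), a fit that called 39.2% of all genes tested in WT and 40.4% in KO. The dimmer Itga4 probe changed by 0.40 and 0.13 at 4 h and by -0.42 and -0.73 at 24 h.

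Itgb7, the chain that pairs with Itga4 and with Itgae, fell most at 4 h. In WT it was at 12.10 and 12.65 before LPS, 12.11 and 12.67 at 1 h, 10.16 and 10.27 at 4 h, then 10.94 and 10.81 at 24 h. In KO it was at 12.71 and 13.12, 13.00 and 13.12, 10.97 and 10.92, and 11.01 and 11.39. All channels of 4 and 24 h were below all of 0 and 1 h. The change at 4 h was -2.16 in WT (SE 0.20, adjusted p = 1.15e-06) and -1.97 in KO (adjusted p = 2.84e-06), and at 24 h -1.50 and -1.72 (adjusted p = 5.37e-05 and 1.65e-05). The partial return from 4 to 24 h was 0.66 in WT (adjusted p = 0.0249), which missed the threshold without any 1 of the 4 arrays of those times, and 0.25 in KO (adjusted p = 0.436). Itgae was not measured.

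Lymphocytes carry Itgb7, Itga4, Itgal and Selplg as well, and their markers were examined in the same samples. All 8 B cell markers lay well above background in all 16 channels, and so did 7 of 10 markers of T and NK cells. The summed log2 level of the B cell markers was 16.21 to 17.00 at 0 and 1 h and 14.99 to 15.67 at 4 and 24 h. At 4 h 4 of the 8 fell and 2 rose in WT, and 6 fell and 2 rose in KO, with Cd79b at -3.05 and -3.52. At 24 h 3 of the 8 fell in WT and 2 in KO, and none rose. The sum of the T and NK cell markers was 13.95 to 14.92 at 0 and 1 h and 13.32 to 13.77 later. Of these 10, 1 fell in WT and 2 in KO at 4 h (medians -0.14 and -0.26), 4 and 5 fell at 24 h (medians -0.54 and -0.54), and none rose. Their part in the changes of Itgb7, Itga4, Itgal and Selplg was not tested. The sum of 7 mast cell markers was 12.92 to 14.34 up to 4 h and 10.84 to 11.87 at 24 h, when 5 of the 7 fell in each genotype and Itga4 fell as well; its part in that was not tested. Neutrophils carry Itgam, Itgb2 and Itgal, and the sum of 7 neutrophil markers was 11.60 to 12.22 up to 4 h and 14.48 to 15.99 at 24 h. At 24 h S100a8 alone of them rose, by 3.77 in WT and 4.50 in KO, and 1 of the 7 fell in each genotype. Of the 7 markers 4 lay well above background in no channel. The part of neutrophils in the levels of Itgam, Itgb2 and Itgal was not tested. All 9 measured macrophage markers lay well above background in every channel, and their sum was 18.41 to 18.51 before LPS, 17.97 to 18.46 at 4 h and 17.14 to 17.76 at 24 h. At 4 h 5 of the 9 fell and 1 rose in WT, and 4 fell and 1 rose in KO, and at 24 h 6 fell in each genotype. At 24 h Fcgr1 rose, by 3.43 in WT and 2.81 in KO, and Cd14 rose in WT, by 0.78. The part of macrophage numbers in the decreases of Itgam, Itgb2 and Itgax was not tested. The sum of 8 markers of mesothelial cells and fibroblasts was 9.71 to 9.99 before LPS and 11.02 to 11.51 at 24 h, when 2 of the 8 rose, Dcn by 2.86 in WT and 3.00 in KO and Lum by 1.52 and 1.96. Lum lay well above background in only 5 of the 16 channels, so the size of its rise is uncertain. Mesothelial cells and fibroblasts carry Itgb1 and Icam1, and their part in the levels of the members at 24 h was not tested.

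Selplg, the PSGL-1 gene, fell at 4 h and partly returned. In WT its level was 14.05 and 13.72 before LPS, 13.67 and 13.34 at 1 h, 12.06 and 11.97 at 4 h, then 12.85 and 12.53 at 24 h. In KO it was 13.80 and 13.99, 13.57 and 13.62, 11.85 and 12.06, and 12.66 and 12.83. The channels of 4 h, of 24 h and of 0 and 1 h formed separate ranges. The change was -1.87 and -1.94 at 4 h (SE 0.16 in each, adjusted p = 3.30e-07 and 2.36e-07) and -1.19 and -1.15 at 24 h (adjusted p = 3.70e-05 and 5.71e-05), and the return was 0.68 and 0.79 (adjusted p = 0.004 and 0.0012). A second probe changed by -1.62 and -1.77 at 4 h. At 1 h the fit with a replicate block, which called 12.3% of all genes, called Selplg lower in WT (-0.38, adjusted p = 0.0142) and Itgax too (-0.38, adjusted p = 0.0488), where the fit without it gave 0.194 and 0.307.

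**Figure D3:**
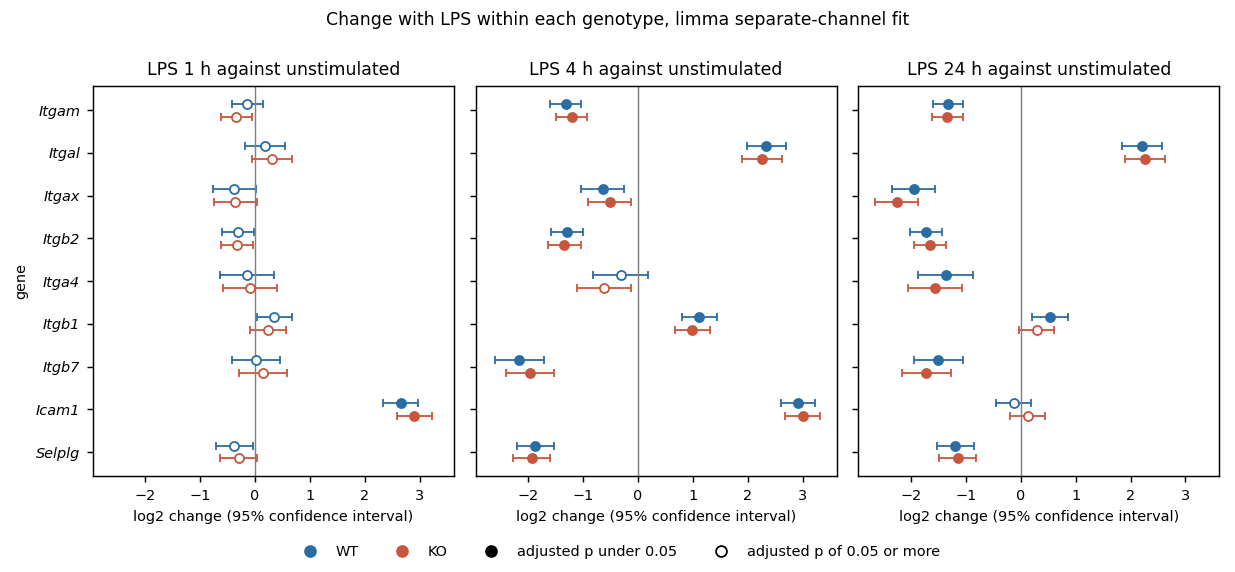
Log2 change from unstimulated cells (horizontal axis, with 95% confidence intervals) of the 9 members at 1, 4 and 24 h of LPS. Blue is WT and red KO, and filled points have an adjusted p under 0.05; Icam1 alone is filled at 1 h, 8 of 9 genes in both genotypes at 4 h, and the intervals of KO and WT overlap for every gene and time.

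The second question was whether these genes differed between KO and WT. Lyz2, the locus of LysMCre, was also lower in KO, so loss of FURIN and the Cre insertion cannot be told apart here. At single time points none of the 9 passed the threshold in limma's fit of the KO to WT ratios. The share of all 36947 genes and transcripts that did was 0% in unstimulated cells, 0% at 1 h, 0.0108% at 4 h and 0.0217% at 24 h. At an unadjusted p under 0.05 there were 2 members in unstimulated cells, 2 at 1 h, 2 at 4 h and 1 at 24 h, namely Itgax and Itgb7 at 0 and 1 h, Itgb2 and Itgb7 at 4 h, and Itgax at 24 h. Of all genes tested, 5.78%, 5.56%, 4.3% and 3.39% lay under the same unadjusted p. The methods' t-test also called none after adjustment. Averaged over the 4 time points, 1 of 9 was higher in KO (Itgb7) and 1 lower (Itgax), where 0.263% of all genes were higher and 0.333% lower. The median over the 9 was -0.01 and over all genes 0.

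Itgb7 was higher in KO on all 8 arrays. Its log2 ratio of KO to WT was 0.62 and 0.47 in replicates 1 and 2 of unstimulated cells, 0.89 and 0.45 at 1 h, 0.81 and 0.65 at 4 h, then 0.07 and 0.58 at 24 h. Only replicate 1 of 24 h was near 0. The mean was 0.57 (SE 0.07, adjusted p = 0.0227), or 1.48-fold, with a 95% confidence interval from 0.40 to 0.73. The fit counts the 8 arrays as independent, although differences between the replicates recurred across time points (Pearson's r 0.476 to 0.68). Its SE, interval and p-value therefore do not measure the spread between biological replicates, here or for Itgax and Itgb2 below. With 1 array left out the mean was 0.50 to 0.63, and the adjusted p was 0.0469 without replicate 2 of 1 h, 0.023 without replicate 1 of 24 h and 0.0571 to 0.113 without each of the other 6. Without both arrays of 4 h, on which Furin goes against the label, the mean over the other times was 0.51 and did not pass (adjusted p = 0.109), and with a replicate block it did (adjusted p = 0.00794), where these fits called 0.103% and 4.82% of all genes. With a replicate block Itgb7 also passed at 4 h (0.73, adjusted p = 0.0426, against 0.383 without the block), where the block called 0.566% of all genes, in samples in which Furin was not lower in RNA labelled KO.

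Itgax was lower in KO on all 8 arrays, by ratios of -0.34 and -0.35 in unstimulated cells, -0.44 and -0.22 at 1 h, -0.11 and -0.32 at 4 h, then -0.76 and -0.55 at 24 h. The largest differences were thus those of 24 h, when Itgax itself was lowest. The mean was -0.39 (SE 0.05, adjusted p = 0.0253), or 0.766-fold. Leaving out any 1 array gave -0.41 to -0.36 with an adjusted p of 0.0577 to 0.118, past the threshold in none of the 8. Without both arrays of 4 h the mean was -0.44 (adjusted p = 0.0731, and 0.00224 with a replicate block). With the software's processed signals neither gene passed (adjusted p = 0.175 for Itgb7 and 0.19 for Itgax). At 24 h the Itgax ratio of -0.65 had an adjusted p of 0.148, and 0.0124 with a replicate block that called 0.585% of all genes.

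Itgb2, the partner of Itgax, was also lower in KO on all 8 arrays, from -0.49 to -0.04. Its mean of -0.26 (SE 0.06) did not pass (adjusted p = 0.144), and did with a replicate block (adjusted p = 0.021), a fit that called 6.06% of all genes. The brightest Itga4 probe depended on the replicate, or on the dye. Its ratio was 0.63, 0.64, 0.34 and 0.26 in replicate 1 at 0, 1, 4 and 24 h and -0.14, -0.05, -0.46 and -0.14 in replicate 2. The term for the replicate was 0.66 (SE 0.09, adjusted p = 0.00175). The dimmer Itga4 probe showed no such split, with ratios of 0.32, 0.02, 0.06 and 0.04 in replicate 1 and 0.31, 0.24, 0.03 and -0.04 in replicate 2. The Selplg probe used had a term of -0.42 (adjusted p = 0.0123), while the ratios of its dimmer probe were -0.08, -0.06, -0.08 and 0.04 in replicate 1 and 0.04, 0.01, -0.26 and 0.07 in replicate 2. The 7 members other than Itgb7 and Itgax had means from -0.26 to 0.14, none past the threshold.

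**Figure D4:**
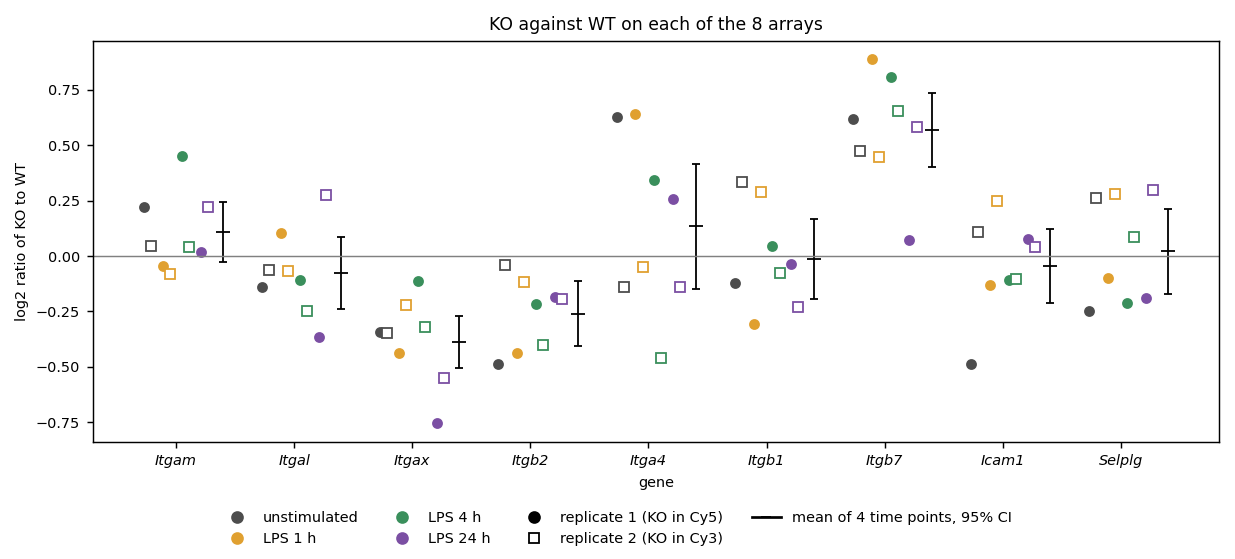
Log2 ratio of KO to WT (vertical axis) of the 9 members on each of the 8 arrays, by time (colour) and replicate (filled circles replicate 1, open squares replicate 2), with the mean of the 4 time points and its 95% confidence interval in black. All 8 points of Itgb7 lie above 0 and all 8 of Itgax and of Itgb2 below, while those of Itga4 (brightest probe) lie above 0 in replicate 1 and below in replicate 2.

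For KO against WT averaged over time, no marker of another cell type passed the threshold, while among macrophage markers Cd5l was higher in KO (0.76, adjusted p = 0.00874) and Csf1r lower (-0.41, adjusted p = 0.0189). Without both arrays of 4 h these were 0.78 (adjusted p = 0.0419) and -0.37 (adjusted p = 0.0771). The KO to WT difference in the summed B cell markers was 0.21 and 0.28 in unstimulated cells, 0.67 and 0.28 at 1 h, -0.34 and -0.05 at 4 h, then 0.08 and 0.29 at 24 h. That of the T and NK cell markers was 0.40, 0.78, 0.21 and 0.20 in replicate 1 and -0.02, 0.01, -0.34 and 0.06 in replicate 2, and that of 7 mast cell markers ran from -0.23 to 0.20 in replicate 1 and from 0.43 to 1.07 in replicate 2. Mast cells carry Itgb7 and Itga4 too, and the part of all these cells in the Itgb7 and Itga4 ratios was not tested. Beside Itgax, the summed dendritic cell markers differed by -0.40 and -0.32 in unstimulated cells, by 0.01 and -0.10 at 1 h, by -0.21 and -0.19 at 4 h, and by 0.07 and 0.03 at 24 h. This sum rests mainly on Siglech, by far the brightest of the 7 probes, and the median over the 7 in unstimulated cells was 0.07 (-0.48 to 0.28). The summed macrophage markers differed by -0.09 and 0.02 in unstimulated cells, by -0.29 and -0.02 at 1 h, by 0.04 and 0.49 at 4 h, and by -0.22 and -0.63 at 24 h. The part of dendritic cells and of macrophage numbers in the Itgax ratio was not tested.

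For none of the 9 members did a difference between KO and WT in the change with LPS pass the threshold. The limma fit called none at 1, 4 or 24 h, where it called 0%, 0% and 0% of all genes tested, none had an unadjusted p under 0.05, and the fit with a replicate block also called none of the 9. The differences ran from -0.20 to 0.25 at 1 h, from -0.30 to 0.19 at 4 h and from -0.31 to 0.25 at 24 h. For Icam1 the difference at 1 h was 0.25 (95% confidence interval -0.22 to 0.72), and for Itgax at 24 h it was -0.31 (-0.64 to 0.02). Intervals of this width leave room for differences of up to 1.10 on the log2 scale, the bound for Itga4 at 4 h.

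The remaining adhesion genes were taken from 5 lists, with 73 of 74 listed genes tested. With LPS 5 rose and 3 fell at 1 h in WT and 7 and 5 in KO, 19 rose and 24 fell at 4 h in WT and 15 and 26 in KO, and 17 rose and 21 fell at 24 h in WT and 16 and 25 in KO. Of all genes tested, 3.36% rose and 5.19% fell at 1 h in WT, 15.4% and 19.3% at 4 h, and 13.5% and 16.8% at 24 h, with 3.11% and 4.41%, 16.2% and 19.8%, and 13% and 15.7% in KO. Their median changes were between -0.12 and 0.02. For KO against WT averaged over time 3 were higher and 1 lower, against 0.263% and 0.333% of all genes, and without both arrays of 4 h only St3gal6 passed (0.57, adjusted p = 0.0451). At single time points none passed, with 8 to 15 of 73 at an unadjusted p under 0.05, against 3.39% to 5.78% of all genes.

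Among the other α and β chains, Itga5, the fibronectin receptor that pairs with Itgb1, rose at 1 h by 1.81 in WT and 1.77 in KO and at 4 h by 2.01 and 2.13. Itgav, a vitronectin receptor chain, rose at 4 h by 1.87 and 1.44. Both pair with Itgb1, which rose at 4 h as well, whereas Itga6, its laminin receptor partner, changed by -2.93 and -3.23 at 4 h and by -2.42 and -2.99 at 24 h. Among β chains Itgb8, which activates latent TGF-β with Itgav, rose by 1.90 and 2.36 at 24 h and Itgb5 changed by -2.61 and -3.23. Of the 11 α chains tested 2 rose and 2 fell at 4 h in WT, and 2 rose and 1 fell in KO. Of the 5 β chains 1 rose and 2 fell in WT, and 1 rose and 3 fell in KO. Of all genes tested, 15.4% rose and 19.3% fell in WT and 16.2% and 19.8% in KO, the background also for the other lists at 4 h.

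In the list of 16 counter-receptors and junction molecules, 6 rose and 5 fell at 4 h in WT, and 5 and 5 in KO. Among the counter-receptors Vcam1, the ligand of VLA-4, rose with Icam1. It changed by 3.29 in WT and 3.91 in KO at 1 h (SE 0.27 in each, adjusted p = 3.19e-06 and 6.94e-07) and by 4.93 and 5.81 at 4 h. At 24 h Vcam1 was still higher, by 1.71 in WT and 2.77 in KO (adjusted p = 0.000236 and 3.15e-06), whereas Icam1 was not past the threshold. The junction protein Jam2 rose at 4 h by 2.61 and 2.78, and Cd99, which takes part in transmigration, changed by -1.64 and -1.62 at 24 h. In KO against WT, averaged over time, Icam2, another LFA-1 ligand, was 0.34 higher (adjusted p = 0.0264) and Madcam1, the ligand of α4β7, was lower, at -0.46 (adjusted p = 0.0368). Without both arrays of 4 h these were 0.35 and -0.53 and did not pass (adjusted p = 0.0807 and 0.0825).

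In the list of 15 selectins, selectin ligands and genes of their synthesis, 5 rose and 5 fell at 4 h in WT, and 4 and 7 in KO. Enzymes that decorate PSGL-1 moved in both directions while Selplg fell. Fut7, the fucosyltransferase needed for selectin binding, changed by -1.94 in WT and -2.30 in KO already at 1 h (adjusted p = 1.07e-07 and 2.72e-08), and by -3.23 and -3.29 at 4 h. Gcnt1, which builds the branched sugar core, changed by -1.84 and -1.82 at 4 h. Tpst1, which sulfates the tyrosines that selectins contact, rose by 2.73 and 2.98. In KO against WT, averaged over time, the sialyltransferase St3gal6 was 0.44 higher (adjusted p = 0.0211).

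Of 26 genes that activate integrins or link them to the cytoskeleton, 5 rose and 10 fell at 4 h in WT and 3 and 10 in KO. Rasgrp2, which switches on Rap1 upstream of β2 integrins, changed by -2.59 and -2.87, and the Rap1 effector Rassf5 by -2.30 and -2.68. The other Rap1 effector, Apbb1ip, rose by 1.35 and 1.10. At 24 h Fyb, an adaptor of this pathway, was higher by 1.24 and 1.22 and Ilk, a protein bound to β1 tails, changed by -1.08 and -1.13. None of the 26 passed for KO against WT.

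**Figure D5:**
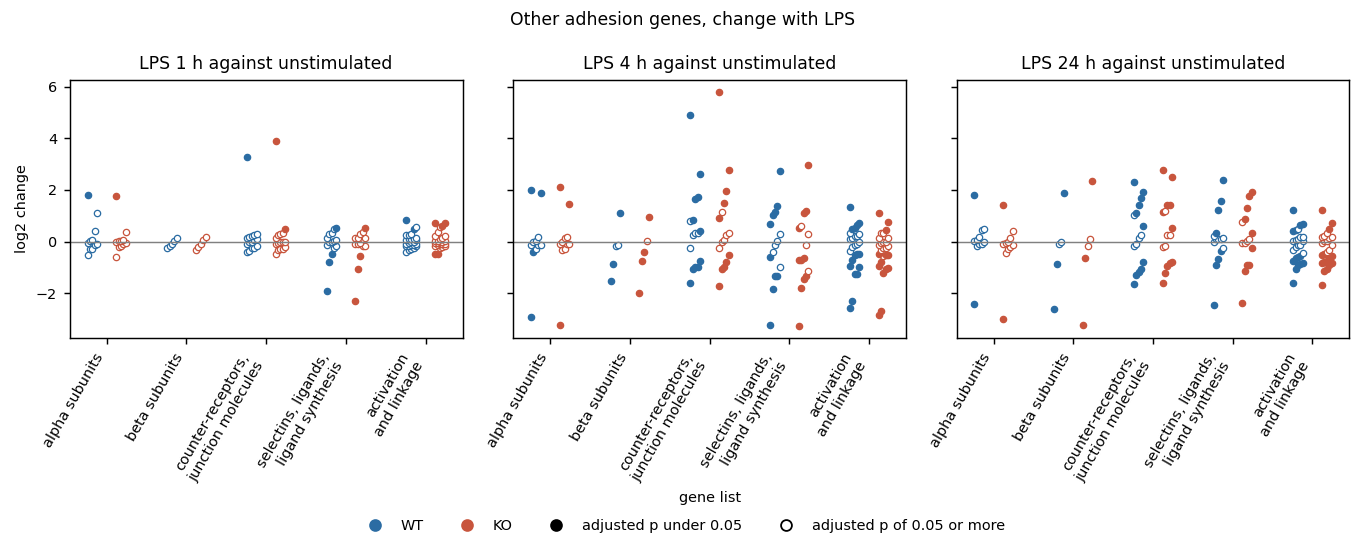
Log2 change from unstimulated cells (vertical axis) at 1, 4 and 24 h of LPS for the 73 other adhesion genes in their 5 lists. Each point is 1 gene, blue in WT and red in KO, filled where the adjusted p is under 0.05; the highest point at 1 and 4 h is Vcam1, at 3.29 and 4.93 in WT and 3.91 and 5.81 in KO.

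The named genes whose levels followed each member most closely over the 16 channels were listed by Pearson's r, which here reflects mainly the 4 time points and carries no test. For Icam1 they were Kdm6b (r = 0.987), Cd83 (0.986) and Ier5 (0.980), for Itgal AA467197 (0.992), 2610318N02Rik (0.991) and Ifit3b (0.990), and for Itgb1 Acbd3 (0.990), Myom3 (0.976) and Ywhaz (0.970). The falling members had Cotl1, Neurl2 and Nrros (Itgam, 0.992 to 0.982), Ltbp3, Cib2 and Ptprs (Itgax, 0.973 to 0.965), and Galc, Sorbs3 and Aph1b (Itgb2, 0.993 to 0.992). They further had Spin1, Akap13 and Klk8 (Itga4, 0.992 to 0.968), Tmprss13, Rfk and Jmjd1c (Itgb7, 0.980 to 0.974), and Trappc6a, Vsir and Acp6 (Selplg, 0.996 to 0.992). No member was among the 3 closest of another. The largest correlation among the members in size was the negative one of Itgam and Itgal, -0.973. All Itgam correlations rest on its brightest probe. Its dimmer probes changed at 24 h by 0.01 and 0.12 in WT and by -0.30 and 0.05 in KO.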

How the data were processed

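The authors hybridised KO and WT RNA together on 8 Agilent 2-colour arrays and read the scans with Agilent Feature Extraction 10.7.3. They deposited the median intensity of each of 62976 spots in both dyes, with quality flags and the software's processed intensity, and a table of normalised log2 ratios of Cy5 to Cy3 (loess and quantile normalization in limma, per the study's methods). Time points were taken from the sample titles, since the growth protocol gives a single stimulation time of 4 h. The 8 arrays shared 1 slide and scan.

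In R 4.3.3, limma 3.58.1 was applied to the median intensities (normexp with an offset of 50, loess within arrays, quantile normalization between arrays) after 1752 outlier spots had been left out. Replicate spots were averaged, and each gene was represented by its brightest probe. Of 37018 genes and unnamed transcripts, tests covered those whose log2 intensity averaged 6 or more. A linear model with 1 coefficient for each time was fitted to the KO/WT log2 ratios from the 8 arrays, with eBayes and 4 residual degrees of freedom. Changes with LPS came from limma's separate-channel analysis of 16 channels (statmod 1.5.0, within-spot correlation 0.12). Adjusted p-values are Benjamini-Hochberg values over every gene in the fit. Precision is limited by the 2 arrays per time point, on which 43.8 to 51.3% of spots lay well above background.

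Replicate numbers recur at every time point. Subtracting replicate 2 from replicate 1 in log2 KO/WT gave differences that correlated across genes between time points (Pearson's r 0.476 to 0.68 over 6 pairs), so the numbers pair the arrays, by culture or by dye. A fit with the number as a block was run beside the one without it. The fit without it counts the arrays of different times as independent. The block takes the mean difference between replicates out of the error, so its p-values do not measure the spread between replicates.

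The 9 members, the adhesion and marker lists and the tests were chosen with earlier results of these data known. Named genes are the members, Furin and Lyz2 as checks, and the 3 genes most like each member. In each adhesion list they are up to 2 genes with the largest rise and 2 with the largest decrease (some are printed). These passed the threshold in the fit and changed the same way in both replicates. Markers of neutrophils, eosinophils, mesothelial cells and fibroblasts were also measured, with 2 of 7, 1 of 5 and 1 of 8 well above background in all channels. Some genes that the lists and this rule hold are counted but not reported here by name.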

Additional observations from a re-analysis of the deposited data

How the results depend on the processing

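Values called in the limma fits kept their direction under every alternative, and none reversed. Over the alternatives other than leaving out an array, 326 of 380 called values stayed past the threshold and 54 did not. When 1 array was left out, 342 of 376 stayed and 34 did not. Of the values that were not called, 13 passed under another setting and 5 without 1 array. The number of members called for KO against WT averaged over time was 2, and 0 with the processed signals; without 1 array it was 0 to 1. Leaving out both arrays of 4 h, an alternative chosen after seeing the data, gave 0 members and 38 of all genes, and 3 members (Itgax, Itgb2 and Itgb7) and 1780 genes with a replicate block. With a replicate block the count rose from 0 to 1 at 4 h and from 0 to 1 at 24 h for KO against WT, and from 1 to 3 for LPS 1 h in WT, and it changed no other count of members by over 1.5 times. Over all genes the replicate block called 2239 in place of 220 for the mean of KO against WT, 399 in place of 0 in unstimulated cells, 218 in place of 0 at 1 h, 209 in place of 4 at 4 h, 216 in place of 8 at 24 h, and 4366 in place of 2776 for LPS 1 h in KO; for the difference in LPS response it called 16 in place of 0 at 4 h and 78 in place of 0 at 24 h. For the mean of KO against WT, 111 were called with the mean of all probes, 132 with the filter on probes well above background and 0 with the processed signals. At 24 h 14 were called with loess alone, with Aquantile or with the authors' log ratios, 4 with the mean of all probes, 5 with the filter, and 0 with the processed signals. The methods' t-test called 0 members in place of 1 at 1 h in WT and in KO, 2 (Icam1 and Itgam) in place of 8 at 4 h in WT, 0 in place of 8 at 4 h in KO, 0 in place of 8 and 7 at 24 h in WT and KO, and 0 in place of 7 and 5 from 4 to 24 h. It called 1886 and 729 genes of all for LPS 4 h in WT and KO, 6 and 540 for LPS 24 h, and 0 for LPS 1 h. From 4 to 24 h in WT, the 7 members called became 3 (Icam1, Itga4 and Itgax) without replicate 1 of 24 h and 4 (with Selplg) without replicate 1 of 4 h. The cause of these shifts was not tested.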
